A study of Mus musculus with 4 samples.

Results

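The integrated stress response was followed here through 9 genes: Atf4, the transcription factor at its centre, the factors Atf5, Ddit3, Cebpb and Cebpg, the phosphatase subunit gene Ppp1r15a and the ATF4 target genes Trib3, Chac1 and Asns. They were taken by symbol from a table of 35976 gene rows. All 9 were found and all 9 passed the filter on low counts, which left 16209 genes for testing. The libraries came from mouse E14 embryonic stem cells (strain given as 12910la) grown on gelatin with 15% serum and 10 ng/ml LIF. In 2 libraries the labels give the genotype as wild type (control), and in 2 as knocked down, meaning a short hairpin RNA against Lx8-SINE B2, delivered on a pSuper puro plasmid and followed 24 h later by 3 days of 1 ug/ml puromycin. The single treatment protocol is attached to every library, so the controls may have been transfected and selected too, but what plasmid they received is not stated. Whether libraries of 1 group were grown as separate cultures is not stated. Their spread, and with it every p-value, may be purely technical. The titles of the knockdown libraries alone carry a batch number, and knockdown and batch cannot be told apart. The targeted RNA itself was not analysed here.

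The integrated stress response is a shared output of several stress-sensing kinases. Each phosphorylates the alpha subunit of the initiation factor eIF2, which lowers general protein synthesis while the coding sequence of Atf4, placed behind upstream open reading frames, is translated more. ATF4 protein, often paired with a C/EBP factor, then switches on genes for amino acid supply, redox balance and feedback, and PPP1R15A, also called GADD34, brings a phosphatase to eIF2 to end the response. Because ATF4 and ATF5 are controlled largely at translation, mRNA counts report the transcript and not the protein.

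Promoter sequence is shown first, because ATF4 acts on its target genes through C/EBP-ATF response elements. The window runs from 250 bases before the RefSeq start site to 30 after it, in build GRCm38.p6, 5′ to 3′ on the strand of the gene. Atf5, the only member that edgeR's test called (values below), lies at chr7:44816629-44816908 on the minus strand. Its capitals mark CCACG, the core of an unfolded protein response element. The window holds neither of the other motifs searched, TGATGNAA and TGACGTCA. CCACG also lies in the Asns and Chac1 windows, where it is left in lower case. RefSeq gives Atf5 another start site, whose window (chr7:44815609-44815908) holds none of the 3 motifs searched and is not printed. Asns (chr6:7693180-7693459, minus strand), Chac1 (chr2:119350992-119351271, plus strand) and Trib3 (chr2:152344031-152344310, minus strand) are shown because they hold TGATGNAA, the core of the C/EBP-ATF response element that ATF4 binds, in capitals and on either strand. Ppp1r15a (chr7:45526239-45526518, minus strand) is shown for TGACGTCA, the palindromic cyclic AMP response element, in capitals.
Atf5: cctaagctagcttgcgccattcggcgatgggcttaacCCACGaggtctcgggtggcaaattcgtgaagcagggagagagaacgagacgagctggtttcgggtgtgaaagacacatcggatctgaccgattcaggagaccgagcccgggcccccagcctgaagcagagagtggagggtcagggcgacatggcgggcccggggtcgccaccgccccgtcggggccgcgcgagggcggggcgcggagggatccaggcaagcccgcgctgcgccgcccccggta
Asns: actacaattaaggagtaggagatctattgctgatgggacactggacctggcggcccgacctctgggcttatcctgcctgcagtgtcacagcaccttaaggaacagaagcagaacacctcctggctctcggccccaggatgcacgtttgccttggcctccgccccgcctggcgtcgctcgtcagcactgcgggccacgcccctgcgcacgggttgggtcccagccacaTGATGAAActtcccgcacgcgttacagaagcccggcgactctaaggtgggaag
Chac1: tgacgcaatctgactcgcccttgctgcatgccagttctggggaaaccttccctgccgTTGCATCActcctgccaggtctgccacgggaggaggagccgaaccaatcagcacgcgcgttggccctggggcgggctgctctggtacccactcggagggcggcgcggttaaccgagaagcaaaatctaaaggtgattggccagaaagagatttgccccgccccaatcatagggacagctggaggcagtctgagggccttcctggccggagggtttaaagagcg
Trib3: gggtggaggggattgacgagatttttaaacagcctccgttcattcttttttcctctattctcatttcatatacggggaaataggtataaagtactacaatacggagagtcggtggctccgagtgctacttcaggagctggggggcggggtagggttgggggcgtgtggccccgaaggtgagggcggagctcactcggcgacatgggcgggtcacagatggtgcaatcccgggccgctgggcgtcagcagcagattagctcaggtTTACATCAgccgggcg
Ppp1r15a: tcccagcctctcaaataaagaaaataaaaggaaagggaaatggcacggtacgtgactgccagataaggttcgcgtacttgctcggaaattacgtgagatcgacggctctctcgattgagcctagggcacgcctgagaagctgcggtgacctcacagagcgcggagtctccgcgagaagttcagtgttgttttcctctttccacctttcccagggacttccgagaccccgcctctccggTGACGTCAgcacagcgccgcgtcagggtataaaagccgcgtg

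The response element core began 23 bases before the start site in Asns and 193 before it in Chac1, and at base 15 after it in Trib3. Searched on both strands over the full 300 bases of the RefSeq table, TGATGNAA was present in 3 of the 10 promoters of the 9 genes and in 3.97% of all 32851 promoters. TGACGTCA was present in 1 of the 10, 12 bases before the Ppp1r15a start, and in 1.79% of all promoters. CCACG, a short core that occurs often, was present in 7 of the 10 and in 32.8% of all promoters. Asns, Chac1 and Trib3 thus share these letters, and edgeR's test called none of the 3 (values below). Among tested genes with a promoter in the table, the 336 whose window holds TGATGNAA had a median log2 fold change of 0.06, with 3 called higher and 1 lower, and the 11503 without it had a median of 0.00, with 89 higher and 62 lower. A match describes letters in this window and is not a binding site.

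The comparison asked which stress response transcripts differed between knockdown and control cells. Atf5 rose 5.64-fold and was the only member called, at a Benjamini-Hochberg adjusted p below 0.05 in edgeR's quasi-likelihood test, where 1.43% of all tested genes were called, 0.876% higher and 0.555% lower. Atf4, Ddit3, Trib3, Cebpb and Ppp1r15a were above both controls in both knockdown libraries without passing the test, Asns was below both controls without passing it, and Chac1 and Cebpg overlapped between the groups. The groups did not overlap for 7 of the 9 members, 6 higher and 1 lower, against 51.9% of all tested genes (27.3% higher and 24.6% lower). At an unadjusted p below 0.05 there were 5 of the 9, against 19.6% of all genes (11.0% higher and 8.58% lower). DESeq2 called 3 of the 9, all higher (Atf5, Atf4 and Ddit3), and 6.83% of all genes (3.81% higher and 3.02% lower). Without the filter on low counts edgeR called the same 3 higher and Asns lower, and 6.47% of all genes (3.75% higher and 2.72% lower). Log2 fold changes were above 0 for 8 of the 9, against 50.5% of all genes. The median log2 fold change was 0.71 over the 9 members and 0.01 over all tested genes. It was 0.49 without control replicate 2 and at most 0.80 in the other fits that left out 1 library. Levels are CPM (read counts relative to library size) after TMM scaling, and log2 fold changes set knockdown over control. With 2 libraries against 2 the smallest two-sided exact permutation p is 0.333, so single values were not tested outside the fit across all genes.

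**Figure D1:**
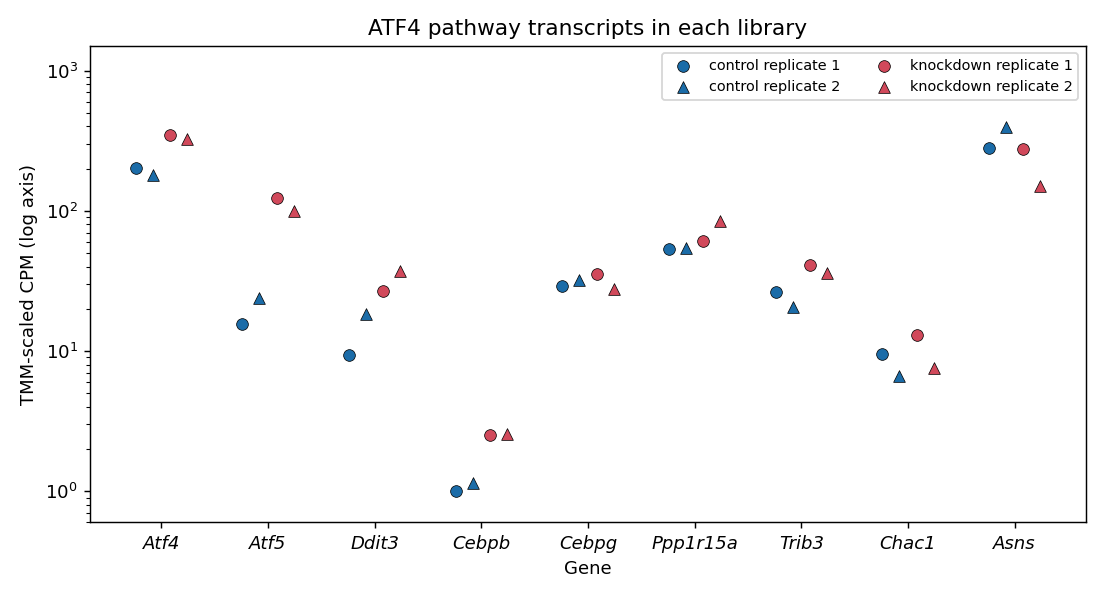
TMM-scaled CPM on a log axis for the 9 genes in each of the 4 libraries, with controls in blue, knockdown libraries in red, circles for replicate 1 and triangles for replicate 2. The red points of Atf5 lie at 124 and 98.9 CPM, well above the blue points at 15.5 and 24.0 CPM, and only Asns has both red points below both blue ones.

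Atf4 encodes the transcription factor whose translation defines the response, and lies on chromosome 15 from 80255184 to 80257545 (mm10). It had 201 and 180 CPM in the controls and 348 and 324 CPM in the knockdown libraries. Both knockdown libraries lay above both controls, and the libraries within each group were close, with the lower knockdown library at 1.62 times the higher control. The means were 190 ± 14.5 and 336 ± 17.0 CPM (SD, n = 2 each). The log2 fold change was 0.82 (standard error, SE, 0.17) with a 95% interval of 0.43 to 1.22, and the edgeR adjusted p was 0.0589, just short of the threshold. It passed in 4 of 12 alternative analyses, with an edgeR adjusted p of 0.0371 without control replicate 1 and a DESeq2 adjusted p of 0.00363, and its adjusted p ranged up to 0.258 over those 12.

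Atf5, a basic leucine zipper factor related to ATF4 and likewise controlled by upstream open reading frames, lies on chromosome 7 from 44812256 to 44816658 on the minus strand. Control libraries held 293 and 463 reads of it, and knockdown libraries 2369 and 1626, or 15.5, 24.0, 124 and 98.9 CPM. Every knockdown library was at least 4.12 times every control, a gap larger than the spread between the controls, where replicate 2 was 1.55 times replicate 1. The means were 19.8 ± 6.04 and 111 ± 17.7 CPM (SD, n = 2 each), and the log2 fold change was 2.50 (SE 0.26, 95% interval 1.89 to 3.10). The edgeR adjusted p was 0.0101, and by unadjusted p the gene stood at rank 18 of the 16209 genes. Atf5 was called in all 12 alternatives, with log2 fold changes of 2.21 (control replicate 1 left out) to 2.80 (control replicate 2 left out) and adjusted p from 3.58e-20 to 0.0231. The promoter table gives it 2 start sites, and gene counts do not separate their transcripts. Its exons share 82 of 1993 bases with Nup62, a nucleoporin gene on the opposite strand, whose own log2 fold change was -0.13 (SE 0.19).

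Ddit3 encodes CHOP, a C/EBP family factor known for promoting cell death in prolonged stress. It is on chromosome 10 from 127290793 to 127296291. It was at 9.40 and 18.2 CPM in the controls and 26.8 and 37.0 CPM in the knockdown libraries. The groups did not overlap, but the controls differed 1.94-fold from each other, the widest gap between controls of the 9 genes. The log2 fold change was 1.21 (SE 0.35, 95% interval 0.40 to 2.01, edgeR adjusted p = 0.116). It was 1.71 and called without control replicate 2 (edgeR adjusted p = 0.0446), and 0.80 without control replicate 1, so the call depended on which control was kept. Its exons share 68 of 1713 bases with Mars, the methionyl-tRNA synthetase gene on the opposite strand, which had a log2 fold change of -0.04.

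Cebpb and Cebpg encode C/EBP factors that pair with ATF4 on its response element. Cebpb, on chromosome 2 from 167688915 to 167690432, was weakly expressed, with 19 and 22 control reads and 48 and 42 reads in the knockdown libraries, or 1.00, 1.14, 2.51 and 2.55 CPM. The groups were apart and the libraries of each group nearly equal, and the exact Poisson 95% intervals, which cover counting error only, reached up to 1.57 and 1.73 CPM in the controls and down to 1.85 and 1.84 CPM in the knockdown libraries. The log2 fold change of 1.23 (SE 0.47, 95% interval 0.15 to 2.32) did not pass (edgeR adjusted p = 0.203). Of its 1504 exon bases, 312 also belong to Tmem189 on the opposite strand, at 33.5 to 41.9 CPM with a log2 fold change of 0.07, so reads there are uncertain. Cebpg, on chromosome 7 from 35046422 to 35056566, was at 29.1 and 32.1 CPM in the controls and 35.6 and 27.8 CPM in the knockdown libraries. Its knockdown libraries lay on either side of the controls, and the log2 fold change was 0.05 with a 95% interval of -0.46 to 0.57 (edgeR adjusted p = 0.926).

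Ppp1r15a, the stress-induced eIF2 alpha phosphatase subunit gene on chromosome 7 from 45522917 to 45526268, was at 53.1 and 54.5 CPM in the controls and 61.2 and 84.6 CPM in the knockdown libraries. The controls were nearly equal, and the distance to them came mostly from knockdown replicate 2. The log2 fold change was 0.44 (SE 0.21, edgeR adjusted p = 0.302), and it was 0.19 without knockdown replicate 2 and 0.65 without knockdown replicate 1.

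Trib3, a pseudokinase gene that ATF4 and CHOP induce and whose product feeds back on ATF4, lies on chromosome 2 from 152337425 to 152344060. It was at 26.5 and 20.7 CPM in the controls and 40.9 and 36.2 CPM in the knockdown libraries. The groups did not overlap, with the lower knockdown library at 1.36 times the higher control, and the log2 fold change was 0.71 (SE 0.23, 95% interval 0.19 to 1.23, edgeR adjusted p = 0.142). It did not pass in any of the 12 alternatives. Chac1, on chromosome 2 from 119351242 to 119354326, encodes an enzyme that breaks down glutathione and is known as a sensitive ATF4 target. It was at 9.56 and 6.64 CPM in the controls and 13.0 and 7.60 CPM in the knockdown libraries. The groups overlapped, and the log2 fold change of 0.35 had a 95% interval of -0.53 to 1.23 (edgeR adjusted p = 0.659), with -0.10 without knockdown replicate 1.

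Asns encodes asparagine synthetase, a standard ATF4 target in amino acid shortage, and lies on chromosome 6 from 7675165 to 7693209. It had 281 and 395 CPM in the controls and 274 and 150 CPM in the knockdown libraries. Knockdown replicate 1 was hardly below control replicate 1, and the low value was that of knockdown replicate 2, so the 2 knockdown libraries differed 1.83-fold, the widest gap within the knockdown group among the 9 genes. The groups did not overlap with TMM, RLE or upper quartile scaling, but did overlap when libraries were scaled by size alone. The log2 fold change was -0.67 (SE 0.30, 95% interval -1.36 to 0.02, edgeR adjusted p = 0.266). It was -0.30 without knockdown replicate 2 and -1.18 without knockdown replicate 1, and it was called in 1 of 12 alternatives, without a filter on low counts.

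**Figure D2:**
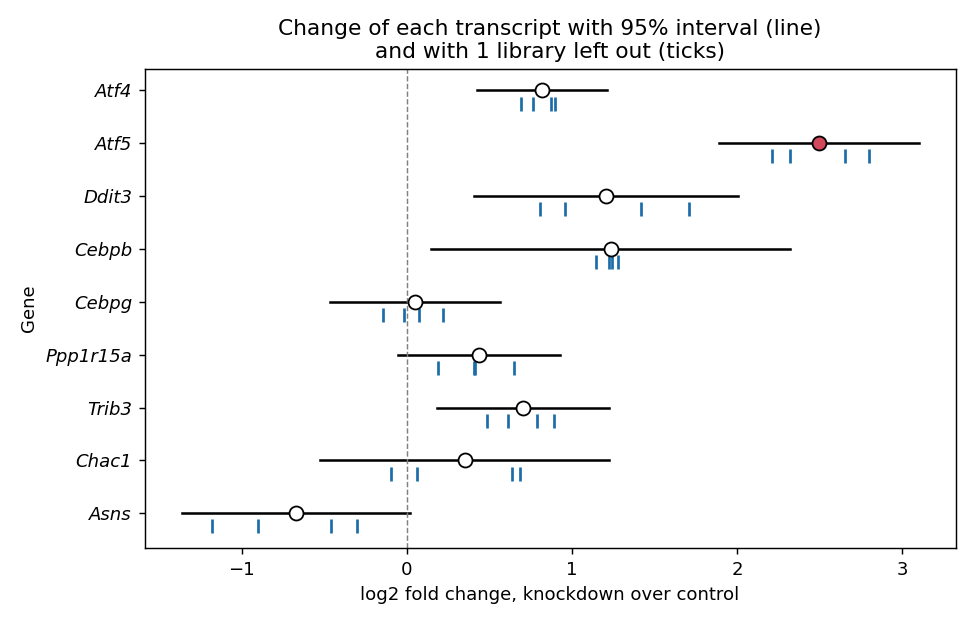
Log2 fold change of knockdown over control for each gene (circle, red where the edgeR adjusted p is below 0.05) with its 95% interval (line), and below it the values when each of the 4 libraries is left out in turn (ticks). Only Atf5, at 2.50, is called, and the ticks of Asns spread from -1.18 to -0.30 while those of Cebpb stay between 1.14 and 1.28.

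The order of the levels also differed between the groups. Exon length here is the union of all annotated exons of a gene, which can exceed the length of the mRNA present. The order between genes depends on that length, while a comparison of the same gene between libraries does not. On the scale of CPM per kilobase of exon, the control means ran from Asns at 124 and Atf4 at 80.8 through Ppp1r15a at 18.3, Trib3 at 11.1, Atf5 at 9.91, Ddit3 at 8.06, Cebpg at 5.45 and Chac1 at 4.95 to Cebpb at 0.71. Compared within each control library, Atf5 was above Ddit3 and Ddit3 above Cebpg in both. Trib3 and Atf5, and Cebpg and Chac1, changed places between the controls, so the order of these pairs is not resolved. In the knockdown libraries Atf4 led at 143, followed by Asns at 77.5, Atf5 at 55.9, Ppp1r15a at 24.8, Ddit3 at 18.6, Trib3 at 18.1, Chac1 at 6.30, Cebpg at 5.64 and Cebpb at 1.68 CPM per kilobase. There Asns was above Atf5 and Ppp1r15a above Ddit3 in both libraries, while Ddit3 and Trib3, and Chac1 and Cebpg, changed places. Atf5 thus stood beside Trib3 and Ddit3 in the controls and beside Asns in the knockdown libraries.

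Levels set against Atf4 within a library involve no scaling between libraries. The percentages depend on the same exon lengths, but whether a ratio separates the groups does not. Atf5 was at 9.12% and 15.8% of Atf4 per kilobase in the controls and at 42.1% and 36.1% in the knockdown libraries. Asns was at 121% and 189% of Atf4 in the controls and at 67.8% and 39.8% in the knockdown libraries. Both ratios therefore separated the groups, in opposite directions. Trib3 was at 12.8% to 14.7% of Atf4 in the controls and at 12.4% to 13.0% in the knockdown libraries, and this ratio did not separate the groups. Cebpg and Ppp1r15a were lower relative to Atf4 in both knockdown libraries, with Cebpg at 6.08% and 7.48% against 4.29% and 3.60% and Ppp1r15a at 21.2% and 24.3% against 14.1% and 20.9%. Ddit3 and Chac1 overlapped, and Cebpb was higher, at 0.78% and 0.99% against 1.13% and 1.24%. Atf4 itself had a log2 fold change of 0.82, against a median of 0.01 over all tested genes, so an unchanged transcript falls in this ratio. In CPM the log2 fold changes of Cebpg and Ppp1r15a were 0.05 and 0.44. How many of all genes separate the groups by this ratio was not counted. These ratios are descriptions, with no test.

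**Figure D3:**
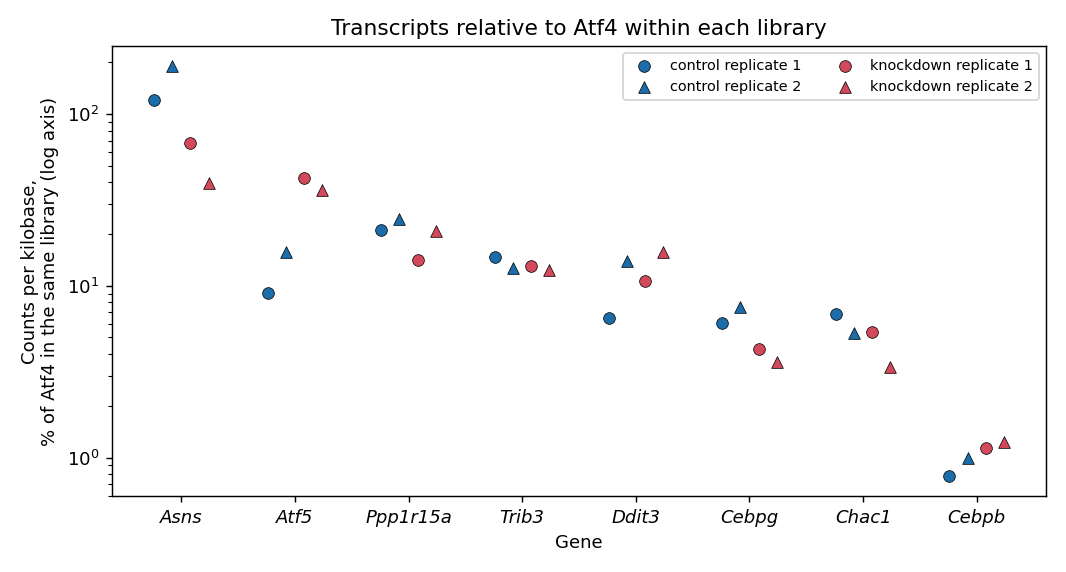
Counts per kilobase of exon as a percentage of Atf4 in the same library, on a log axis, for the other 8 genes in the 4 libraries (blue controls, red knockdown, circles replicate 1, triangles replicate 2). Atf5 moves from at most 15.8% in the controls to at least 36.1%, Asns from at least 121% to at most 67.8%, and the 4 points of Trib3 lie between 12.4% and 14.7%.

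The 2 knockdown libraries did not differ in a uniform way over the 9 genes. Atf4, Atf5, Trib3, Chac1, Asns and Cebpg (6 genes) were higher in replicate 1, and Ddit3, Ppp1r15a and Cebpb (3 genes) were higher in replicate 2. Of the controls, replicate 2 was higher in 6 genes and replicate 1 in 3.

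The rest of the pathway is described through lists chosen for their place in it. Over all genes, edgeR called 1.43%, limma-voom 1.49%, DESeq2 6.83% and edgeR without the filter on low counts 6.47%. With a term for replicate number (the replicate block) edgeR called 4.05%. An unadjusted p below 0.05 was reached by 19.6%, and the median was 0.01. Each list count is to be read against the share for its own rule. Among other C/EBP and leucine zipper partner genes, 1 of 8 tested rose, Atf3, an ATF factor induced by many stresses and also a p53 target, and the median log2 fold change was 0.49. DESeq2 and edgeR without the filter called Mafg, a small MAF factor gene, higher as well, and limma-voom called 0. Atf3 had 1.53 and 2.08 CPM in the controls and 6.96 and 17.4 CPM in the knockdown libraries. The groups were apart at a low level, with knockdown replicate 2 above replicate 1. The log2 fold change was 2.75 (SE 0.51, edgeR adjusted p = 0.0493), and the call was lost in 8 of 12 alternatives, at 1.95 without knockdown replicate 2, 2.54 without control replicate 1 and 2.93 without control replicate 2. In the fits that left out 1 library the list median was lowest without knockdown replicate 2, at 0.23, and without control replicate 1, at 0.27.

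Serine synthesis and mitochondrial one-carbon genes, which ATF4 is known to induce, had the opposite sign. Of 7 tested genes 2 fell, 0 rose, all 7 log2 fold changes were below 0, and the median was -0.52. DESeq2 and edgeR without the filter called 3 lower, Psph, a phosphoserine phosphatase gene, being the addition. Phgdh, which encodes the first enzyme of serine synthesis, had 129 CPM in both controls and 48.3 and 36.6 CPM in the knockdown libraries, and fell 3.03-fold (log2 fold change -1.60, SE 0.20, edgeR adjusted p = 0.0173). Mthfd1l, a mitochondrial formyl-tetrahydrofolate synthetase gene, had 129 and 121 CPM in the controls and 64.9 and 63.6 CPM in the knockdown libraries, and fell 1.95-fold (edgeR adjusted p = 0.043). Phgdh was called in all 12 alternatives, and Mthfd1l lost its call without knockdown replicate 1 (edgeR adjusted p = 0.135), without knockdown replicate 2 (edgeR adjusted p = 0.213) and with libraries scaled by size alone. The list median was -0.35 without knockdown replicate 2. Atf5 and Phgdh, both known as genes downstream of ATF4, were thus called in opposite directions in the same libraries.

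The other ATF4 targets, from Sesn2 to Pycr1, split. Of 17 tested genes 0 were called by limma-voom or by edgeR's quasi-likelihood test on all 4 libraries with group as the only term. At an unadjusted p below 0.05 there were 6 higher and 2 lower. DESeq2 called 4 higher (Sesn2, Ddit4, Gdf15 and Gadd45a) and 1 lower (Pycr1). Without the filter, edgeR called 6 of 18 higher, Cth and Bbc3 besides those 4, and 2 lower, Pycr1 and Ero1l. Sesn2 then had an edgeR adjusted p of 0.00164. With the filter and the replicate block, edgeR called 3 of 17 higher (Sesn2, Gdf15 and Gadd45a) and 0 lower. Log2 fold changes ran from -0.94 to 1.45, 9 above 0 and 8 below, with a median of 0.58 that was 0.16 without control replicate 1 and 0.28 without knockdown replicate 2. Some of them, such as Sesn2, Bbc3 and Gadd45a, are also targets of p53, and the part of p53 in their values was not tested. Sesn2, a sestrin that restrains mTORC1, had 132 and 92.0 CPM in the controls and 260 and 158 CPM in the knockdown libraries (log2 fold change 0.90, SE 0.28, edgeR adjusted p = 0.132). Eif4ebp1, a repressor of cap-dependent translation, was at -0.06 (log2 fold change, 95% interval -0.53 to 0.40).

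Amino acid transporters and tRNA charging genes showed no common direction. Of 9 transporter genes 0 were called by edgeR, limma-voom or DESeq2 and 1 was lower at an unadjusted p below 0.05. Without the filter, edgeR called 1 lower, the cationic amino acid transporter gene Slc7a3. Their median of 0.04 changed sign between -0.22 without control replicate 2 and 0.28 without control replicate 1. The most abundant, Slc38a2, a neutral amino acid transporter, had 505 and 408 CPM in the controls and 631 and 562 CPM in the knockdown libraries (edgeR adjusted p = 0.311), and Slc3a2, the heavy chain partner of several transporters, had a log2 fold change of 0.17 (SE 0.19). Of 13 tRNA charging genes 0 were called by any of these tools, with 1 higher at an unadjusted p below 0.05 and a median of -0.04, which was -0.15 without control replicate 2. The log2 fold changes of its most abundant members Eprs and Aars, which encode the glutamyl-prolyl and alanyl synthetases, were -0.36 (SE 0.18) and 0.02 (SE 0.17).

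Upstream genes held no call in edgeR's quasi-likelihood test with the filter, all 4 libraries and group as the only term. Of 8 genes for the eIF2 alpha kinases and their regulators 0 were called by that test or limma-voom. DESeq2, edgeR without the filter and edgeR with the replicate block called 1, Impact, higher. At an unadjusted p below 0.05 there were 1 higher and 1 lower. Their median was 0.11, and it was -0.004 without knockdown replicate 1 and 0.04 without control replicate 2. Impact, which encodes an inhibitor of the kinase GCN2, had 211 and 204 CPM in the controls and 354 and 499 CPM in the knockdown libraries. The groups were apart, with a log2 fold change of 1.04 (SE 0.21). Its edgeR adjusted p of 0.0557 was 0.0357 without knockdown replicate 1. Gcn1l1, which encodes the GCN2 activator GCN1, had a log2 fold change of 0.09 (SE 0.18). Of the other 4 phosphatase subunit genes 0 were called by any of these tools and 0 passed an unadjusted p of 0.05, with Ppp1ca and Ppp1cc, catalytic subunits of protein phosphatase 1, at -0.26 and -0.37. Of 8 genes for eIF2 and its exchange factor eIF2B 0 were called by any of these tools and 1 was lower at an unadjusted p below 0.05. Their median of -0.07 was -0.23 without control replicate 2 and -0.21 without knockdown replicate 2. Eif2s2, the beta subunit gene, was at 0.01 and Eif2s3x, a gamma subunit gene, at -0.51 (edgeR adjusted p = 0.222).

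Chaperones of the endoplasmic reticulum, which the XBP1 and ATF6 branches of the unfolded protein response induce, give a readout of stress in that compartment. The list also holds genes that are not chaperones, such as Atf6, Ern1 and Xbp1. Of 20 tested genes 0 were called by edgeR, limma-voom or DESeq2, and 2 were higher and 2 lower at an unadjusted p below 0.05. Log2 fold changes were above 0 for 15 of the 20, against 50.5% of all genes. The median was 0.09, and it was 0.04 without knockdown replicate 2. Without the filter, edgeR called 1 lower, Hsp90b1, which encodes the chaperone GRP94. Hsp90b1 had 322 and 656 CPM in the controls and 265 and 278 CPM in the knockdown libraries, a distance that came mostly from control replicate 2. Calr and Canx, which encode the lectin chaperones calreticulin and calnexin, had log2 fold changes of 0.10 (SE 0.18) and 0.17 (SE 0.20). Of 7 mitochondrial chaperone and protease genes 0 were called by any of these tools, 2 were lower at an unadjusted p below 0.05, and the median of -0.08 was 0.01 without knockdown replicate 1, -0.19 without knockdown replicate 2 and -0.29 without control replicate 2.

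**Figure D4:**
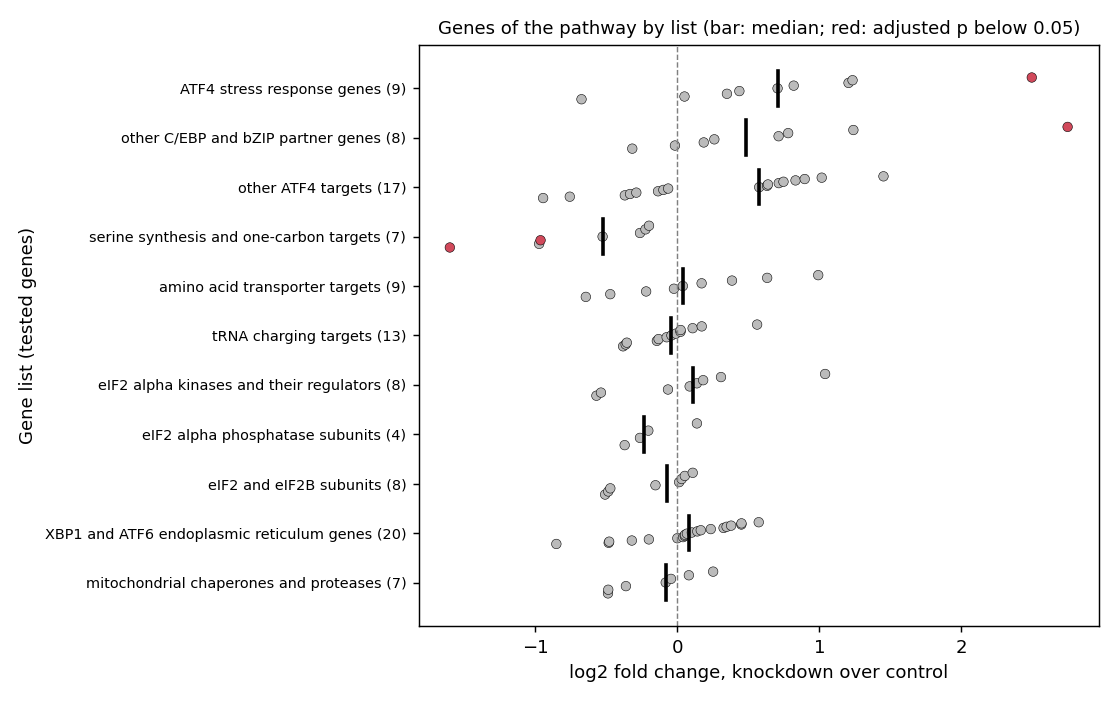
Log2 fold change of knockdown over control for every tested gene of 11 lists, with the list median as a bar and genes at an edgeR adjusted p below 0.05 in red. Red points are Atf5 at 2.50, Atf3 at 2.75, Phgdh at -1.60 and Mthfd1l at -0.96. The medians of these 11 lists run from -0.52 for serine synthesis to 0.71 for the 9 stress response genes. The cell type marker lists are not shown.

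By the distance between centred log2 CPM over the 4 libraries, the tested genes of at least 5 CPM whose pattern was nearest to that of Atf4 included Tpgs1, Nckap5l, Natd1 and Lpin1, at distances of 0.068 to 0.082. With 4 libraries this mostly matches the size of the difference between groups, as their log2 fold changes of 0.82 to 0.89 show.

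Libraries held 16383323 to 19867689 counts. The 10 embryonic stem cell markers summed to 6662 and 6225 CPM in the controls and 5195 and 5566 CPM in the knockdown libraries, and 1 of them, Tdgf1, a NODAL coreceptor gene, fell (log2 fold change -1.19, edgeR adjusted p = 0.0437, not called without knockdown replicate 1 at -1.16, without replicate 2 at -1.23 or with libraries scaled by size alone at -1.15). Without the filter edgeR also called Fgf4 lower and Sall4 higher. Differentiated lineage markers were low, and 9 of 11 were tested. Those 9 summed to 45.4 and 53.3 CPM in the controls and 73.2 and 82.8 CPM in the knockdown libraries. Krt8 gave 38.8 CPM of the sum in knockdown replicate 2. In knockdown replicate 1, at 10.3 CPM, Krt8 was below both controls (11.6 and 22.7 CPM). Log2 fold changes were above 0 for 8 of the 9 lineage markers, against 50.5% of all genes. Their median was 0.79, above the 0.71 of the 9 stress response genes, and that of all tested genes was 0.01. The groups did not overlap for 4 genes higher and 1 lower, against 27.3% and 24.6% of all tested genes. By edgeR or limma-voom 0 were called, by DESeq2 1 higher (Gata6), and by edgeR without the filter 2 higher (Gata4 and Gata6). At an unadjusted p below 0.05 there were 3 higher and 1 lower. Of 10 fibroblast markers, Postn and Lum had 0 counts in every library and Col3a1, Dcn and Twist2 at most 1, and the 5 tested markers summed to 32.1 to 45.4 CPM. Of these 5, limma-voom and edgeR with group as the only term called 0. DESeq2 called Fbn1 higher and Thy1 and Pdgfrb lower, the same 3 that had an unadjusted p below 0.05 in edgeR. Their log2 fold changes were 1.14, -1.64 and -1.54. With the replicate block edgeR called 1 lower, Thy1. Mitochondrial mRNAs took 0.60% to 1.13% of the counts. The part of these shifts in the stress response values was not tested, and in bulk RNA fewer cells with a transcript and less of it per cell cannot be told apart.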

How the data were processed

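With an mRNA-seq kit, per the labels' protocols, RNA of 2 control and 2 knockdown libraries was sequenced. Raw, unnormalized read counts for each gene symbol were deposited by the authors as 1 table. Per the submitters' processing notes, reads went through cutadapt, HISAT2 and featureCounts on build mm10. Annotation, strand setting and the handling of multi-mapped reads: not given in the sources used here. Of 36068 rows, 92 spike-in rows with 0 counts were left out. Counts were filtered with filterByExpr, scaled by TMM and compared with the quasi-likelihood test of edgeR 4.0.16 in R 4.3.3, with group as the only term and Benjamini-Hochberg adjustment over all 16209 tested genes. Dividing the log2 fold change by the root of its F statistic gave the standard error (SE), and a t quantile gave the 95% interval. The fit was checked on simulated counts. Alternatives were 3 scalings, 2 filters, DESeq2 1.42.0, limma-voom (limma 3.58.1), a replicate block and leaving out each library, where the lone library of a group is assumed to vary like the other group. Exon lengths and overlaps came from GENCODE M21 (GRCm38, the build of mm10), positions from RefSeq (GRCm38.p6) and promoters from a RefSeq table that matched all 9 genes. A blastn search of member transcripts (version 2.17.0, at least 90% identity over 200 bases) found a match outside the gene only where Cebpb overlaps Tmem189.

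The 9 genes and all lists were chosen with earlier results of these data known. The rule for other named genes takes at most 3 called genes of each list, smallest p first, the 2 most abundant of a list without calls, and the 5 genes nearest to Atf4, of which 1 is not reported here. Of the genes it takes from the marker and mitochondrial chaperone lists, Tdgf1, Krt8, Fbn1 and Pdgfrb are given singly. The others are given within their lists. Genes named because DESeq2 or the fit without a filter called them were chosen after their values were seen. So were marker genes given singly that the rule does not take, and genes that share exon bases with a member.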

Additional observations from a re-analysis of the deposited data

How the results depend on the processing

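Over all genes 232 were called. The number was 1717 without a filter on low counts, 1107 with DESeq2 and 656 with the replicate block, and it ran from 153 to 587 when 1 library was left out, lowest without knockdown replicate 2 and highest without control replicate 1. The cause was not tested. Of the 9 stress response genes, 1 was called higher and 0 lower. This became 3 higher (Atf5, Atf4 and Ddit3) without the filter, with DESeq2 and with the block, 1 lower (Asns) without the filter, and 1 to 2 higher when 1 library was left out. The groups did not overlap for 7 of the 9 genes with TMM, RLE or upper quartile scaling. The share over all tested genes was 51.9% with TMM. With 1 library left out, 1 group is a single library and groups lie apart more easily, so those counts are not set beside this share. With library size as the only scaling the Asns groups overlapped. The median over the 9 genes was 0.71, and 0.488 to 0.804 when 1 library was left out. The replicate numbers are shared by the groups, but same-numbered libraries did not deviate together (correlation across genes -0.057), so the block rests on a number only.

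Values near 0 changed sign. Eif2s2 was -0.008 with RLE scaling and with DESeq2, -0.020 with upper quartile scaling and -0.002 without the filter, and Aars was -0.010 with upper quartile scaling. When 1 library was left out, log2 fold changes ran from -0.143 to 0.220 for Cebpg, -0.097 to 0.685 for Chac1, -0.080 to 0.098 for Eif2s2, -0.066 to 0.104 for Aars, -0.058 to 0.198 for Gcn1l1, -0.320 to 0.173 for Eif4ebp1, -0.071 to 0.391 for Slc3a2, -0.022 to 0.328 for Canx and -0.006 to 0.201 for Calr. Of the other 7 stress response genes none changed sign in the 12 alternatives. Cebpb, with 19 to 48 reads in a library, is the stress response gene whose precision depth limits most.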
